A study of Mus musculus with 4 samples.

Results

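The cells described here are *Icos*+ *Il18r1*+ *Zbtb16*-low bone marrow progenitors without appreciable *Il1rl1*, the gene of the IL-33 receptor ST2. They were selected by expression among αLPs (α lymphoid progenitors, sorted as Lin−CD127+FLT3−LPAM-1+ cells) of WT and G3SEKO mice. A cell was a member when *Id2*, *Icos* and *Il18r1* each reached 1 or more as ln(1 + reads per 10000), and *Zbtb16*, *Il1rl1*, *Ccr6*, *Eomes*, *Klrd1*, *Cd3e* and *Mki67* were each below 1. This gave 389 members among 8322 cells that carried 1 hashtag call and passed the limits on depth and mitochondrial reads. The levels of these 10 genes in members are therefore fixed by the selection and are given as a description only.

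G3SEKO mice lack the GATA3-related tandem super-enhancers, a pair of enhancer clusters downstream of *Gata3* on chromosome 2, and the *Gata3* gene itself is intact (GRCm38 chromosome 2, 9857078 to 9890034, minus strand). The strain was C57BL/6 by the labels of experiment 1, and those of experiment 2 name no strain. The study used adult mice of both sexes, and the sex of the mice in these pools is not given. Mice were untreated, and the cells of several mice were pooled per genotype. These cells were given hashtag antibodies (anti-MHC class I) and then run together in 1 TAS-Seq library in each of 2 experiments. The labels of experiment 1 give 3 hashtags to each genotype, whereas those of experiment 2 list both hashtags, A0302 and A0303, under WT and none under G3SEKO. Contrary to the label, A0303 was taken to mark G3SEKO cells, a reading on which all G3SEKO values of experiment 2 depend. Transcripts of the deleted interval were not examined, so the genotype labels were not checked directly. With 1 library per experiment, cells are not replicates, and the sum of reads over the members of a genotype and an experiment served as the unit, given as CPM (reads per 1e6 reads of that sum).

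Group 2 innate lymphoid cells (ILC2s) are tissue lymphocytes that release type 2 cytokines without an antigen receptor. In the bone marrow they arise from ILC progenitors (ILCPs), which carry the transcription factor PLZF encoded by *Zbtb16*, through cells committed to the ILC2 fate that turn on *Bcl11b* and the IL-25 receptor gene *Il17rb*, and finally gain ST2. GATA3 is needed throughout this path, and ICOS and the IL-18 receptor chain IL-18Rα mark stages along it.

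The members were found in both genotypes and both experiments. Experiment 1 held 41 WT and 6 G3SEKO members, and experiment 2 held 102 WT and 240 G3SEKO members. Experiment 1 was far deeper per cell, with medians of 489767 and 575374 reads per WT and G3SEKO member, against 47164 and 45221 reads in experiment 2. The 4 sums held 27784666 and 3856917 reads in experiment 1 and 6549602 and 13984024 reads in experiment 2. Reads copied from 1 molecule were not collapsed, so all intervals given here cover counting error only. Of the barcodes listed, 11 occurred in both experiments, and 0 of these belonged to a member. In the hashtag reads, the called hashtag of every member led the next one by at least 5.01-fold.

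The summed reads of the genes of the selection describe the members. *Il1rl1* (chromosome 1, 40429570 to 40465415, plus strand) was at 11.4 and 3.37 CPM in WT and G3SEKO members of experiment 1, with 35.9 and 11.1 CPM for experiment 2. In WT cells with *Il1rl1* at or above 1 it was at 1098 and 1370 CPM in the 2 experiments. *Zbtb16* (chromosome 9, 48654297 to 48836222, minus strand) was at 30.3 and 8.30 CPM in experiment 1, with 16.8 and 20.4 CPM in experiment 2. In experiment 2, 59 of 102 WT and 163 of 240 G3SEKO members had no *Il1rl1* read, and 74 and 182 had no *Zbtb16* read. *Icos*, which encodes an inducible co-stimulator, was at 1833 and 2251 CPM in experiment 1, with 2090 and 1893 CPM in experiment 2. *Il18r1*, next to *Il1rl1* on chromosome 1, was at 949 and 1544 CPM, then 850 and 1115 CPM.

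Cells lay close to the limits on both sides. Within 0.25 of the *Il18r1* limit, experiment 2 had 11 WT and 8 G3SEKO members just inside, and 9 WT and 12 G3SEKO cells that missed membership on this gene alone just outside. For *Zbtb16*, the corresponding numbers were 1 WT and 15 G3SEKO members inside and 7 WT and 15 G3SEKO cells outside. For *Il1rl1* they were 9 WT and 1 G3SEKO members inside and 4 WT and 2 G3SEKO cells outside. At any distance from the limit, 431 WT and 41 G3SEKO cells of experiment 2 were left out on *Il18r1* alone. G3SEKO cells of experiment 2 were left out on 1 gene alone most often for *Icos*, in 168 cells, and for *Zbtb16*, in 126 cells.

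**Figure D1:**
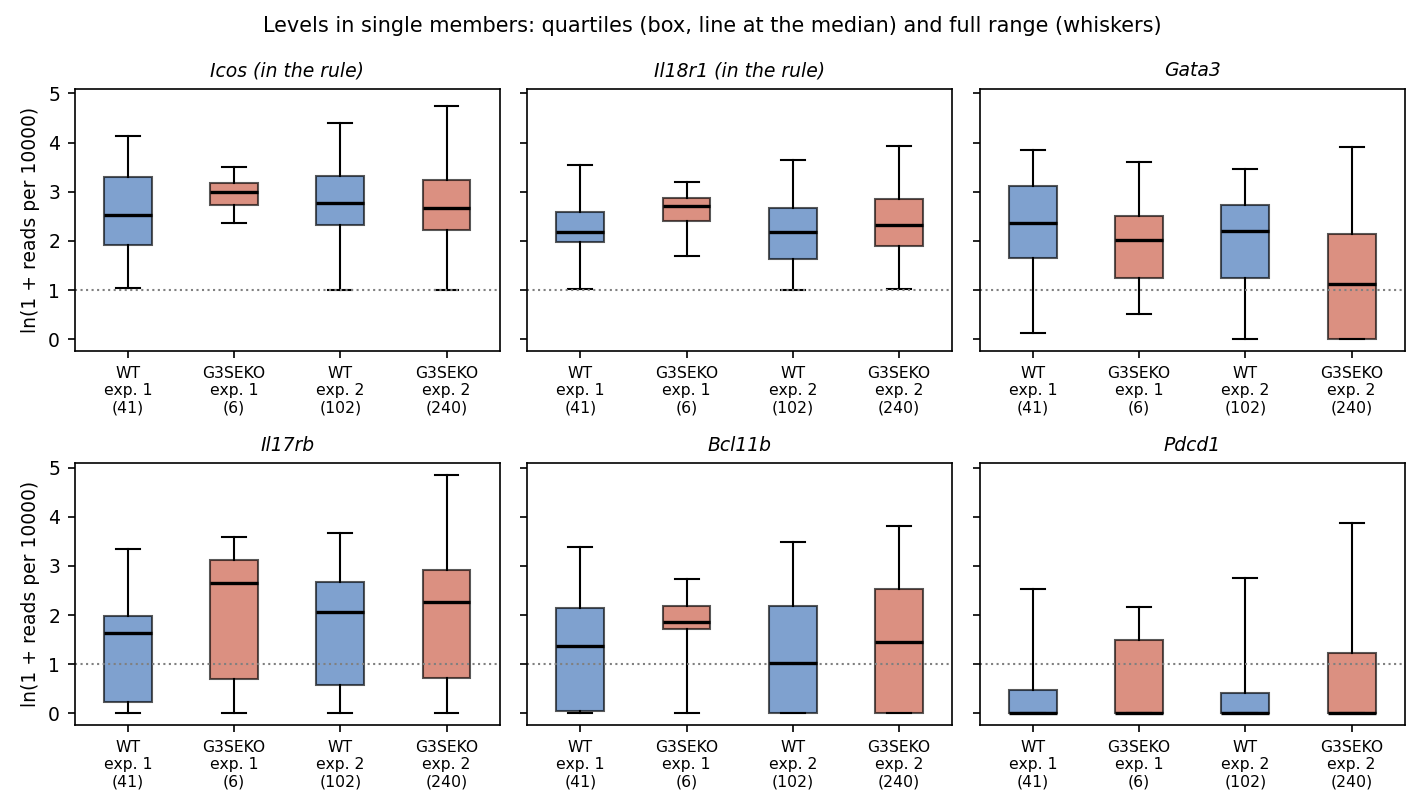
Levels of 6 genes in single members, on the scale of ln(1 + reads per 10000), for WT (blue) and G3SEKO (red) members of both experiments, with the number of cells in brackets. Boxes are quartiles with the median as a line, whiskers reach the lowest and highest cell, and the dotted line marks the limit of 1. *Icos* and *Il18r1* lie above the limit by selection, while the *Gata3* median of G3SEKO members in experiment 2, 1.12, lies below the other medians, which range from 2.02 to 2.37.

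*Il17rb* and *Bcl11b*, which the selection did not use, reached 1 in at least 50% of the members of each genotype and experiment. *Il17rb* (chromosome 14, 29996135 to 30008896, minus strand), the receptor subunit for IL-25, reached 1 in 25 of 41 WT and 4 of 6 G3SEKO members of experiment 1. In experiment 2 it did so in 71 of 102 WT members (69.6%, 95% exact binomial interval 59.7 to 78.3%) and 171 of 240 G3SEKO members (71.2%, 65.1 to 76.9%). In cells of the *Eomes* or *Klrd1* gate, which are closer to NK cells and ILC1s and should lack it, *Il17rb* reached 1 in 7 of 31 WT cells and 8 of 67 G3SEKO cells of experiment 2, at median depths of 48271 and 54676 reads. *Bcl11b* (chromosome 12, 107910403 to 108003602, minus strand), a zinc-finger factor of ILC2 commitment, reached 1 in 24 of 41 and 5 of 6 members of experiment 1. In experiment 2 it did so in 51 of 102 WT members (50%, 39.9 to 60.1%) and 144 of 240 G3SEKO members (60%, 53.5 to 66.2%), against 3 of 31 and 3 of 67 cells of the *Eomes* or *Klrd1* gate.

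The members were not uniform for these genes. In experiment 2, both genes reached 1 in 42 of 102 WT and 125 of 240 G3SEKO members, and neither did in 22 WT (21.6%) and 50 G3SEKO members (20.8%). In experiment 1, neither did in 7 of 41 WT and 1 of 6 G3SEKO members. About 1 in 5 members thus carried neither commitment marker at this limit, in either genotype of experiment 2. *Pdcd1*, which encodes the checkpoint receptor PD-1 of ILCPs and early committed cells, reached 1 together with *Il17rb* in 12 WT (11.8%, 6.23 to 19.6%) and 54 G3SEKO members (22.5%, 17.4 to 28.3%) of experiment 2. Members with *Il17rb* at or above 1 and *Pdcd1* below 1 are the nearest transcript match to IL17RB+PD-1− cells. They numbered 21 (WT) and 3 (G3SEKO) in experiment 1, with 59 and 117 in experiment 2. *Pdcd1* reached 1 in only 66 of 146 WT and 123 of 243 G3SEKO *Zbtb16*+ *Bcl11b*-low progenitors of experiment 2. A *Pdcd1* level below 1 therefore does not show that a cell lacked PD-1 protein.

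*Gata3* varied with both commitment markers in WT members. In experiment 1, the level of *Gata3* was 1402 CPM for WT members with *Il17rb* at or above 1 and 993 CPM for the other WT members, and in experiment 2 it was 1045 and 687 CPM. By *Bcl11b*, the WT values were 1705 and 626 CPM in experiment 1 and 1082 and 829 CPM in experiment 2. The G3SEKO members of experiment 2 had lower levels on both sides, at 526 and 403 CPM by *Il17rb* and at 551 and 396 CPM by *Bcl11b*. The 6 G3SEKO members of experiment 1 did not share the order by *Il17rb*, at 560 CPM in the 4 members with *Il17rb* at or above 1 and 1942 CPM in the other 2. By *Bcl11b* they were at 814 CPM in 5 members and 68.4 CPM in the other 1. Members split by *Il17rb* or *Bcl11b* share their libraries, and no test was made between them.

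At single-cell level the *Gata3* difference of experiment 2 was also seen as cells without a read. In experiment 2, 11 of 102 WT members (10.8%, 5.51 to 18.5%) and 65 of 240 G3SEKO members (27.1%, 21.6 to 33.2%) had no *Gata3* read. Their median depths were 47164 and 45221 reads, and the shallowest cells had 10651 and 7176 reads. With each cell thinned to the read limit of experiment 2, *Gata3* was read in 83 WT (81.4%) and 132 G3SEKO members (55%). In experiment 1, all 41 WT and 6 G3SEKO members had a *Gata3* read, and 35 and 5 did after thinning.

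The members were then placed among the other stages of ILC2 development that could be gated from the same cells. The gates were *Zbtb16*+ *Bcl11b*-low cells (ILC progenitors), *Zbtb16*+ *Bcl11b*+ cells (early committed), *Il18r1*+ *Il1rl1*+ cells and *Il1rl1*+ *Il18r1*-low cells (the more mature ST2+ stage). Because expression defines every gate, their differences are descriptions and were not tested. Of 10027 genes at 10 CPM or more in at least 1 of the 3 stages compared, 1383 (13.8%) had a WT level in members between that of ILC progenitors and that of *Il1rl1*+ *Il18r1*-low cells in both experiments, 1589 (15.8%) lay above both and 1294 (12.9%) below both.

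Many genes of the ILC program lay between these stages. Of 29 ILC transcription factors, 12 were between, 6 above and 0 below both stages. *Gata3* was at 684, 1265 and 1334 CPM in WT ILC progenitors, members and *Il1rl1*+ *Il18r1*-low cells of experiment 1, and at 724, 963 and 1031 CPM in those of experiment 2. Its highest WT level, 1633 and 1222 CPM, was in *Il18r1*+ *Il1rl1*+ cells. *Tcf7*, which encodes the early progenitor factor TCF-1, went the opposite way, at 1796, 466 and 44.5 CPM in experiment 1, with 2023, 271 and 41.3 CPM in experiment 2. *Rora*, an orphan nuclear receptor needed by ILC2s, was at 1815 and 1596 CPM in WT members, nearer to ILC progenitors (2230 and 2364 CPM) than to *Il1rl1*+ *Il18r1*-low cells (525 and 499 CPM). *Hes1*, a target of Notch signalling, was at 276 and 135 CPM in ILC progenitors and already at 19.5 and 13.6 CPM in members.

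Of 16 ILC progenitor genes, 10 lay between, 3 above and 1 below. *Cxcr5*, a chemokine receptor of progenitors, was at 15.4 and 25.04 CPM in WT members, against 344 and 302.3 CPM in ILC progenitors and 0.490 and 0.361 CPM in *Il1rl1*+ *Il18r1*-low cells. *Pdcd1* was at 150 and 123 CPM in WT members, between 248 and 457 CPM in ILC progenitors and 7.37 and 9.499 CPM in *Il1rl1*+ *Il18r1*-low cells. The homing receptors had 8 of 14 genes between, 3 above and 1 below. *Ccr9*, the receptor for the gut chemokine CCL25, was at 391 and 339 CPM in WT members, between 12.8 and 68.1 CPM before and 1033 and 756 CPM after. *Ly6a*, which encodes Sca-1, followed the same order, at 9.46, 172 and 917 CPM in experiment 1, with 158, 281 and 1373 CPM in experiment 2.

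Other genes lay above both of these stages in WT members. Of 14 surface receptor genes, 6 lay between, 3 above and 1 below. *Il17rb* was at 464 and 906 CPM in WT members, above ILC progenitors at 82.4 and 166 CPM and *Il1rl1*+ *Il18r1*-low cells at 369 and 549 CPM, whereas *Il18r1*+ *Il1rl1*+ cells had 543 and 788 CPM. *Thy1* was at 736 and 726 CPM in members, against 269 and 310.7 CPM in ILC progenitors and 484 and 362 CPM in *Il1rl1*+ *Il18r1*-low cells. *Maf* was at 828 and 458 CPM, against 581 and 438 CPM in ILC progenitors and 287 and 191 CPM in *Il1rl1*+ *Il18r1*-low cells.

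Genes of DNA replication were mostly above both stages. Of 12 cell cycle genes at 10 CPM or more, 10 lay above both stages in WT members of both experiments, 0 between and 0 below. *Mcm2* and *Mcm6* encode subunits of the replicative helicase. *Mcm2* was at 88.6 CPM in WT members of experiment 1, against 31.0 and 27.1 CPM, and at 198 CPM in experiment 2, against 26.05 and 37.3 CPM. *Mcm6* was at 82.3 CPM against 32.1 and 51.2 CPM, and at 272 CPM against 67.6 and 64.3 CPM. The selection removed cells with *Mki67* at or above 1 from all these gates, and *Mki67* remained at 3.49 and 9.01 CPM in WT members. Among all genes, 5 were at 50 CPM or more in WT members and at least 2-fold above each of the other WT gates of the ILC2 path in both experiments, namely *Mcm2*, *Hells*, *Lmnb1*, *Mrs2* and *Cd7*, which were chosen after their values were seen. The *Eomes* or *Klrd1* gate and *Ccr6*+ cells were not part of this comparison. In WT cells of the *Eomes* or *Klrd1* gate, *Mcm2* was at 90.7 and 26.3 CPM, *Mcm6* at 158 and 52.2 CPM and *Cd7* at 873 and 771 CPM in the 2 experiments.

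**Figure D2:**
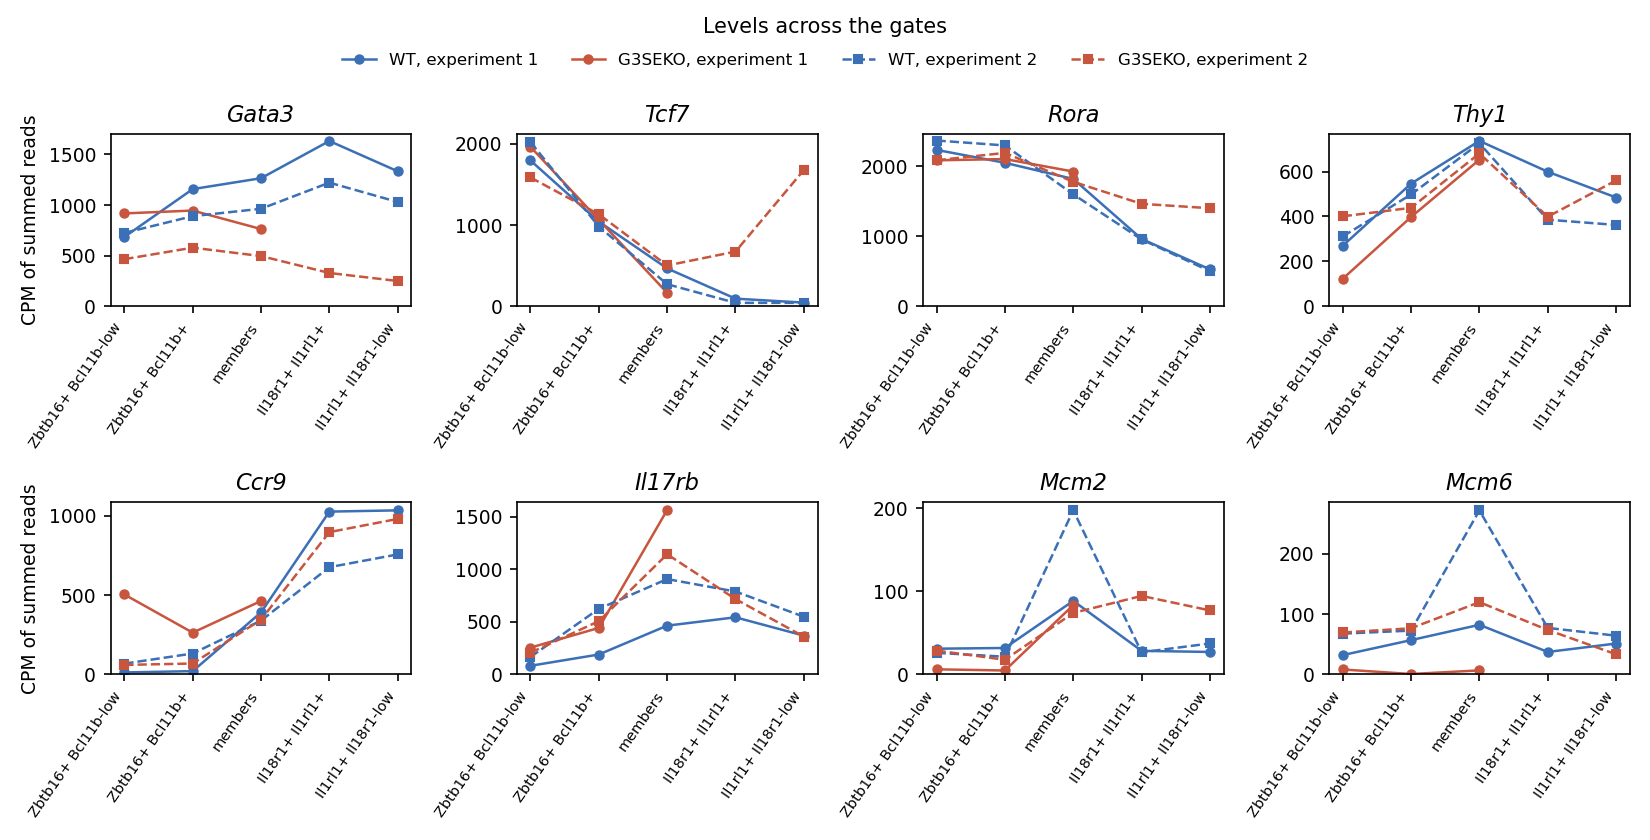
Levels of 8 genes across the gates, as CPM of summed reads, for WT (blue) and G3SEKO (red) sums of experiment 1 (circles, solid lines) and experiment 2 (squares, dashed lines). The 1 G3SEKO cell in the last 2 gates of experiment 1 is not drawn. In WT cells *Gata3* and *Ccr9* are higher in the last gate than in the first, *Tcf7* and *Rora* are lower, and *Mcm2* and *Mcm6* peak in the members.

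The members took a larger share of G3SEKO αLPs in both experiments, by ratios of very different size, and the gates before them did so too. In experiment 1, 41 of 737 WT cells (5.56%, 95% exact binomial interval 4.02 to 7.47%) and 6 of 63 G3SEKO cells (9.52%, 3.58 to 19.6%) were members, and these intervals overlapped. In experiment 2, 102 of 6075 WT cells (1.68%, 1.37 to 2.03%) and 240 of 1447 G3SEKO cells (16.6%, 14.7 to 18.6%) were members, and the intervals did not. G3SEKO over WT, the shares had a ratio of 1.71 in experiment 1 and of 9.88 in experiment 2, and 3.61 for the mean shares. With *Zbtb16* and *Il1rl1* held at no read, the shares of experiment 1 were 4 of 737 WT (0.543%) and 0 of 63 G3SEKO cells, which allows up to 5.69% by the exact interval, and those of experiment 2 were 47 of 6075 (0.774%) and 130 of 1447 (8.98%). The ratio of the mean shares was then 6.82. The *Zbtb16*+ *Bcl11b*-low gate held 7.19% (WT) and 12.7% (G3SEKO) in experiment 1, with 2.403% and 16.8% in experiment 2, and the *Zbtb16*+ *Bcl11b*+ gate 4.21% and 14.3%, with 1.14% and 6.84%. The larger share was therefore not particular to the members. The labels name no animals within an experiment, so no test of the shares was made. Among the hashtags of experiment 1, A0307, A0308 and A0309 (WT) held 18 of 275, 17 of 250 and 6 of 212 cells, and A0310, A0311 and A0312 (G3SEKO) held 2 of 23, 1 of 9 and 3 of 31 cells.

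The share was also computed without ST2+ cells in the denominator. *Il1rl1*-expressing cells numbered 418 in WT and 1 in G3SEKO of experiment 1, and 3510 and 47 in experiment 2. Among *Id2*+ cells with *Il1rl1* below 1 that passed the other exclusions, the members were 41 of 213 WT cells (19.2%) and 6 of 31 G3SEKO cells (19.4%) of experiment 1. In experiment 2 they were 102 of 1465 WT (6.96%) and 240 of 890 G3SEKO cells (27.0%). Without the ST2+ cells, the genotypes therefore had nearly the same share in experiment 1, and the G3SEKO share stayed higher in experiment 2. On this denominator *Zbtb16*+ *Bcl11b*-low cells were 24.9% (WT) and 25.8% (G3SEKO) in experiment 1, with 9.97% and 27.3% in experiment 2. *Zbtb16*+ *Bcl11b*+ cells were 14.6% and 29.0%, with 4.71% and 11.1%. The higher G3SEKO share of experiment 2 was thus not particular to the members.

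**Figure D3:**
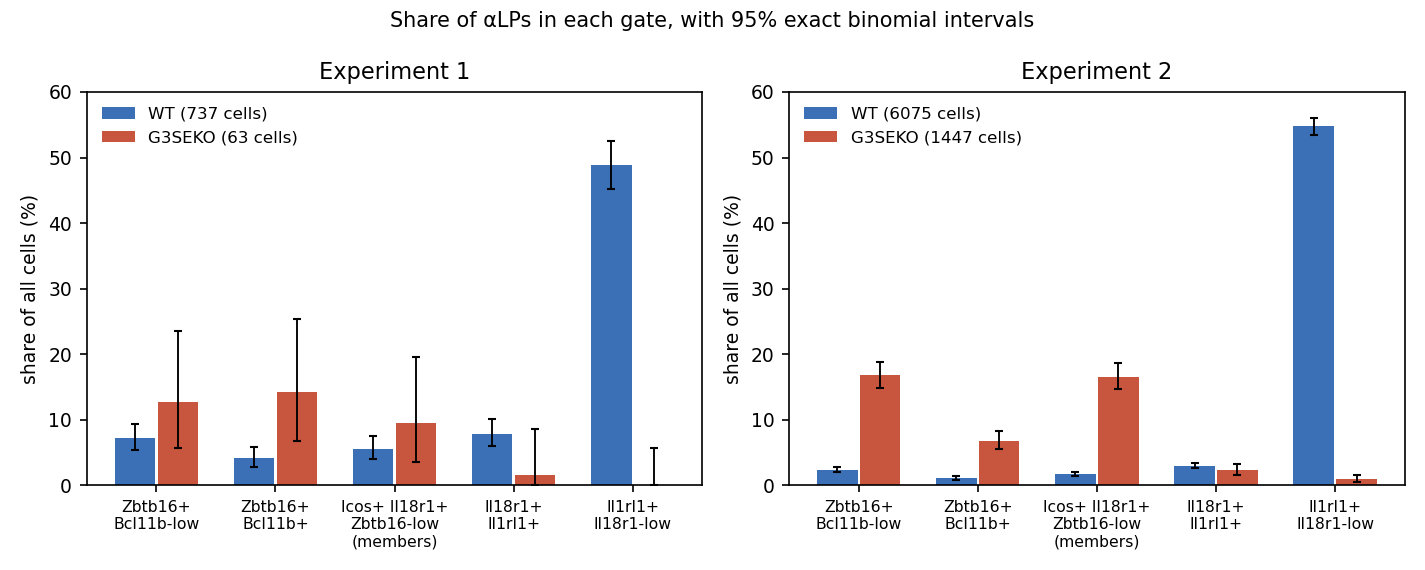
Share of all αLPs in each of 5 gates, for WT (blue) and G3SEKO (red) cells of experiment 1 (left) and experiment 2 (right), with 95% exact binomial intervals as error bars. The middle gate, that of the members, holds 5.56% (WT) and 9.52% (G3SEKO) in experiment 1, with 1.68% and 16.6% in experiment 2, while the *Il1rl1*+ *Il18r1*-low gate on the right is mostly WT.

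The genotypes were next compared within the members, with edgeR's quasi-likelihood test on the 4 sums and the experiment as a block. Of 12119 genes tested, 0 (0%) were called at an adjusted p below 0.05 (Benjamini-Hochberg), and 218 had an unadjusted p below 0.05, of which 108 were higher and 110 lower in G3SEKO members. DESeq2 called 18 genes, 16 higher and 2 lower. The median log2 difference of all genes tested was −0.24, mostly from experiment 1, whose median log2 ratio was −0.53, against 0.04 in experiment 2. Per experiment, 2432 genes (20.1%) were higher and 3639 (30.0%) lower in G3SEKO members of both. Counts of named lists below are to be read against these shares. Where 2 pairs of values are given, the first is experiment 1 and the second experiment 2, with WT before G3SEKO. Each G3SEKO value of experiment 1 rests on 6 cells, and 1 of these cells supplied 81% of the reads of *Mcm6*, 92% of those of *Ivns1abp* and 58% of those of *Jun*, and 75% or more of those of *Slc7a8*, *Il18rap*, *Cpa3*, *Klrb1b*, *Ighm*, *Nkg7*, *Trbc2* and *Bst2*.

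*Gata3* was lower in G3SEKO members in 2 of 2 experiments. Experiment 1 gave 1265 CPM (WT) against 763 CPM (G3SEKO), and experiment 2 gave 963 against 496 CPM. The log2 ratios, G3SEKO over WT, were −0.73 and −0.96, a mean of −0.84 ± 0.16 (SD, n = 2). The fitted log2 difference was −0.76 (SE 0.36), with an unadjusted p of 0.0498 and an adjusted p of 0.9998 by edgeR's quasi-likelihood test. Within experiment 1 the hashtags overlapped, at 1553, 1116 and 666 CPM for WT, and at 156 (2 cells), 3569 (1 cell) and 763 CPM (3 cells) for G3SEKO.

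The ILC transcription factors, *Gata3* included, had no common direction. Of 30 tested, 0 were called, 11 (36.7%) were higher and 6 (20.0%) lower in both experiments, and the median log2 difference was 0.04. *Bcl11b* was at 606 and 768 CPM in WT and G3SEKO members of experiment 1 and at 530 and 768 CPM in experiment 2 (log2 difference 0.53, SE 0.37). *Lmo4*, which encodes a LIM-domain adaptor, was at 2588 and 5655 CPM, then 2022 and 2844 CPM, and *Ets1*, an activator of lymphoid genes, was at 1024 and 2015 CPM, then 1104 and 1296 CPM. *Rora* was at 1815 and 1921 CPM, then 1596 and 1775 CPM, a log2 ratio of at most 0.15 in either experiment. *Maf* was at 828 and 1670 CPM, then 458 and 887 CPM (log2 difference 1.07, unadjusted p = 0.0069, adjusted p = 0.9998 by edgeR). *Tcf7* pointed in opposite directions, at 466 and 165 CPM in experiment 1, with 271 and 502 CPM in experiment 2. *Ikzf3*, which encodes Aiolos, was at 521 and 572 CPM, then 664 and 820 CPM.

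Surface receptors of ILC2 commitment showed no common direction. Of 14 tested, 0 were called, 4 (28.6%) were higher and 5 (35.7%) lower in both experiments. *Il17rb* was at 464 and 1563 CPM in WT and G3SEKO members of experiment 1 and at 906 and 1143 CPM in experiment 2 (log2 difference 1.13, SE 0.41, unadjusted p = 0.014, adjusted p = 0.9998 by edgeR). *Il7r*, the IL-7 receptor α chain by which these cells were sorted as CD127+, was at 1779 and 2257 CPM, then 1695 and 2223 CPM. *Thy1*, which encodes a common surface marker of ILCs, was at 736 and 653 CPM, then 726 and 680 CPM. For *Il7r* and *Thy1* the genotypes lay within 1.5-fold of each other in both experiments, and for *Il17rb* in experiment 2. *Ly6a* was at 172 and 4.93 CPM, then 281 and 162 CPM (log2 difference −2.79, SE 0.90, unadjusted p = 0.0065, adjusted p = 0.9998 by edgeR). *Il2ra*, the CD25 gene of mature ILC2s, was at 62.4 and 2.85 CPM, then 42.4 and 43.7 CPM.

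For homing and egress, 16 receptors were tested, 0 were called, 6 were higher and 6 lower in both experiments, with a median log2 difference of −0.05. *Ccr2*, a receptor for monocyte chemoattractant chemokines, was at 738 and 1104 CPM, then 616 and 1114 CPM (log2 difference 0.80, unadjusted p = 0.035, adjusted p = 0.9998 by edgeR). *Selplg*, a selectin ligand, was at 772 and 718 CPM, then 881 and 1040 CPM. *Itga4*, the α4 chain of the integrin LPAM-1 used in the sort, was at 536 and 410 CPM, then 883 and 449 CPM. *Ccr9* was at 391 and 463 CPM, with 80% of the G3SEKO reads from 1 cell, and at 339 and 345 CPM.

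The co-stimulation and checkpoint receptors comprised 13 tested genes, of which 0 were called, 3 were higher and 6 lower in both experiments. *Pdcd1* was at 150 and 251 CPM, then 123 and 284 CPM (log2 difference 1.07, unadjusted p = 0.046, adjusted p = 0.9998 by edgeR), with 80% of the G3SEKO reads of experiment 1 from 1 cell. *Cd226*, an adhesion and activation receptor, was at 158 and 214 CPM, then 135 and 252 CPM. Of 18 ILC progenitor genes, 0 were called, 7 (38.9%) were higher and 3 (16.7%) lower in both experiments. *Cxcr6*, which marks ILC progenitors on their way out of the marrow, was at 409 and 424 CPM, then 230 and 429 CPM.

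The IL-1 receptor family, apart from the genes of the selection, had 8 tested members, of which 0 were called, 1 was higher and 4 lower in both experiments. *Il18rap*, the signalling partner of IL-18Rα, was at 156 and 49.5 CPM, then 129 and 69.5 CPM (log2 difference −1.18, SE 0.71). The kinase gene *Irak1* was at 186 and 141 CPM, then 118 and 89.7 CPM. *Myd88*, which encodes the adaptor of these receptors, was at 41.4 and 1.04 CPM, then 54.5 and 40.8 CPM. Of 10 survival genes, 0 were called, 0 were higher and 6 lower in both experiments. *Bcl2*, the main anti-apoptotic gene among them, was at 618 and 546 CPM, then 602 and 889 CPM. *Mcl1* was at 186 and 168 CPM, then 235 and 228 CPM, and *Bax*, which promotes apoptosis, was at 107 and 90.7 CPM, then 147 and 137 CPM.

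The type 2 cytokine genes *Il5* and *Il13* were scarcely read in members of either genotype. Of 10 type 2 effector genes tested, 0 were called, 0 were higher and 8 lower in both experiments. *Il5* and *Il13* were at 1.66 and 0.0720 CPM in WT members of experiment 1 and at 10.5 and 9.31 CPM in WT members of experiment 2. In G3SEKO members, *Il5* and *Il13* were at 0.259 CPM each in experiment 1, and had no read in experiment 2. *Hpgds*, a prostaglandin D2 synthase, was at 22.4 and 1.30 CPM, then 31.0 and 19.2 CPM, and the prostaglandin receptor gene *Ptger4* at 30.9 and 0.519 CPM, then 25.2 and 22.9 CPM.

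A list of 6 genes held 4 candidate GATA3 targets of the study, *Slc7a8*, *Cnot6l*, *Ptpn13* and *Inpp4b*, and 2 genes added to them, *Zfp36l1* and *Cnot6*. All 6 were lower in G3SEKO members of both experiments, against 30.0% of all genes tested, and 0 of them were called. In experiment 1 the median log2 ratio of all genes tested was −0.53. *Cnot6* (−0.23), *Cnot6l* (−0.48) and *Zfp36l1* fell less than that, and *Slc7a8*, *Ptpn13* and *Inpp4b* fell more. The study chose the 4 candidates in part on these libraries and also described *Zfp36l1* and *Cnot6* from them, so the direction of the list is not independent evidence. *Il1rl1*, another candidate, is a gene of the selection. Their median log2 difference was −1.25, against −0.24 for all genes tested. *Slc7a8*, an amino acid transporter gene, was at 69.6 and 17.6 CPM, then 37.4 and 8.37 CPM. *Ptpn13*, a phosphatase gene, was at 62.6 and 0.259 CPM, then 65.2 and 13.0 CPM, and *Inpp4b*, a lipid phosphatase gene, at 55.5 and 3.63 CPM, then 161 and 77.5 CPM. The deadenylase gene *Cnot6l* was at 691 and 495 CPM, then 752 and 459 CPM (log2 difference −0.51, SE 0.38), its paralog *Cnot6* at 291 and 248 CPM, then 329 and 300.0 CPM, and *Zfp36l1* at 370 and 316 CPM, then 371 and 299.9 CPM. In WT cells, 4 of these 6 genes lay between ILC progenitors and *Il1rl1*+ *Il18r1*-low cells, *Cnot6l* among them at 350 and 393 CPM before, and 969 and 1022 CPM after.

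Cell cycle genes were mostly lower in G3SEKO members, without a call. Of 20 tested, 0 were called, 0 were higher and 13 (65%) lower in both experiments, against 30.0% of all genes, and the median log2 difference was −1.27. All 6 genes of the helicase subunits MCM2 to MCM7 were among them. *Mcm2* was at 88.6 and 83.5 CPM in experiment 1, a smaller drop than the median log2 ratio of −0.53 there, then 198 and 74.1 CPM. Of the G3SEKO reads of experiment 1, 1 cell supplied 98% for *Mcm7*, and *Mcm5* had only 5 reads. *Mcm6* was at 82.3 and 6.74 CPM in experiment 1, with 272 and 120 CPM in experiment 2 (log2 difference −2.27, SE 0.77, unadjusted p = 0.0083, adjusted p = 0.9998 by edgeR). *Mcm4* was at 58.1 and 19.2 CPM, then 163 and 67.6 CPM, and *Mcm5* at 79.8 and 1.30 CPM, then 162 and 82.7 CPM. *Pcna*, the sliding clamp of the replication fork, did not follow, at 162 and 308.3 CPM, then 351 and 179 CPM, and *Hmgb2* was at 379 and 355 CPM, then 196 and 104 CPM. In experiment 2, *Mcm6* reached 1 in 24 of 102 WT (23.5%) and 35 of 240 G3SEKO members (14.6%).

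Immediate early genes, which many stimuli induce quickly, held the gene with the smallest p of all. Of 13 tested, 0 were called, 5 (38.5%) were higher and 2 (15.4%) lower in both experiments. *Fos* was at 3.67 and 59.6 CPM in experiment 1, where 1 cell supplied 96% of the WT and 100% of the G3SEKO reads, and at 259 and 899 CPM in experiment 2 (log2 difference 2.97, SE 0.60, unadjusted p = 0.00011, adjusted p = 0.797 by edgeR). It was called in 4 of 11 settings, but among members with *Il17rb* at or above 1 and *Pdcd1* below 1 its log2 difference was −0.48. In experiment 1 this subset had 3 G3SEKO cells, and *Fos* was at 7.15 (WT) and 0 CPM (G3SEKO). Its *Fos* level in experiment 2 was still higher in G3SEKO, at 236 and 826 CPM. *Jun* was at 31.3 and 206 CPM, then 249 and 734 CPM (log2 difference 2.22, SE 0.50), and *Jund* at 134 and 103 CPM, then 235 and 356 CPM. *Fos* reached 1 in 31 of 102 WT (30.4%) and 129 of 240 G3SEKO members (53.8%) of experiment 2. *Fos* was also higher in G3SEKO cells of the other gates of experiment 2. It was at 286 and 649 CPM in WT and G3SEKO ILC progenitors, 192 and 715 CPM in *Zbtb16*+ *Bcl11b*+ cells, 394 and 578 CPM in *Il18r1*+ *Il1rl1*+ cells and 544 and 663 CPM in *Il1rl1*+ *Il18r1*-low cells. The *Eomes* or *Klrd1* gate had 168 and 480 CPM and *Ccr6*+ cells 279 and 674 CPM. The interaction of *Fos* against *Il1rl1*-expressing cells was 4.09 on the log2 scale (SE 1.58, unadjusted p = 0.010, adjusted p = 0.821 by edgeR), with 0 reads in the 1 G3SEKO cell of experiment 1, and the part of this wider difference in that of the members was not tested.

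Further genes had small p without a call by edgeR in the main setting. Over the alternatives, *Tmem147os* and *Slc24a3* were called in 4 of the 9 settings that tested them, *Jun*, *Ivns1abp* and *Pcsk1* in 2 of 11, and *Rbm3*, *Ly6a* and *Stmn1* in 0 of 11. Besides *Fos* and *Jun*, the 5 smallest p among genes higher in G3SEKO members included those of *Tmem147os* and *Slc24a3*. *Tmem147os* was at 0.144 and 0 CPM in WT and 140.3 and 12.9 CPM in G3SEKO members, and *Slc24a3* at 0 and 0.153 CPM in WT and 228 and 1.001 CPM in G3SEKO members. In experiment 1 a single G3SEKO cell held 91% of the *Tmem147os* reads and 100% of the *Slc24a3* reads, so their fitted changes depend on that cell and are not given. The annotation holds 2 overlapping genes under the symbol *Tmem147os*, an antisense RNA and a processed transcript, which the counts do not tell apart, and whether strand was used in counting is not given in the sources used here. Among genes lower in G3SEKO members, *Rbm3*, a cold-inducible RNA-binding protein gene, differed least between experiments in log2 ratio among the 5 with the smallest p, at 421 and 146 CPM in experiment 1, with 517 and 190 CPM in experiment 2 (log2 difference −1.40, SE 0.44, unadjusted p = 0.0049, adjusted p = 0.9998 by edgeR). *Ivns1abp*, a gene for an actin-associated protein, was at 482 and 56.8 CPM, then 749 and 335 CPM (log2 difference −2.03, SE 0.49). *Pcsk1*, a prohormone convertase gene, was at 97.8 and 94.7 CPM in WT members, had no read in G3SEKO members of experiment 1 and was at 2.57 CPM in those of experiment 2. It was read in 15 of 41 and 16 of 102 WT members and in 0 of 6 and 8 of 240 G3SEKO members. *Stmn1*, a microtubule regulator of dividing cells, was at 92.9 and 1.04 CPM, then 218 and 87.7 CPM (log2 difference −3.52, SE 1.15).

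**Figure D4:**
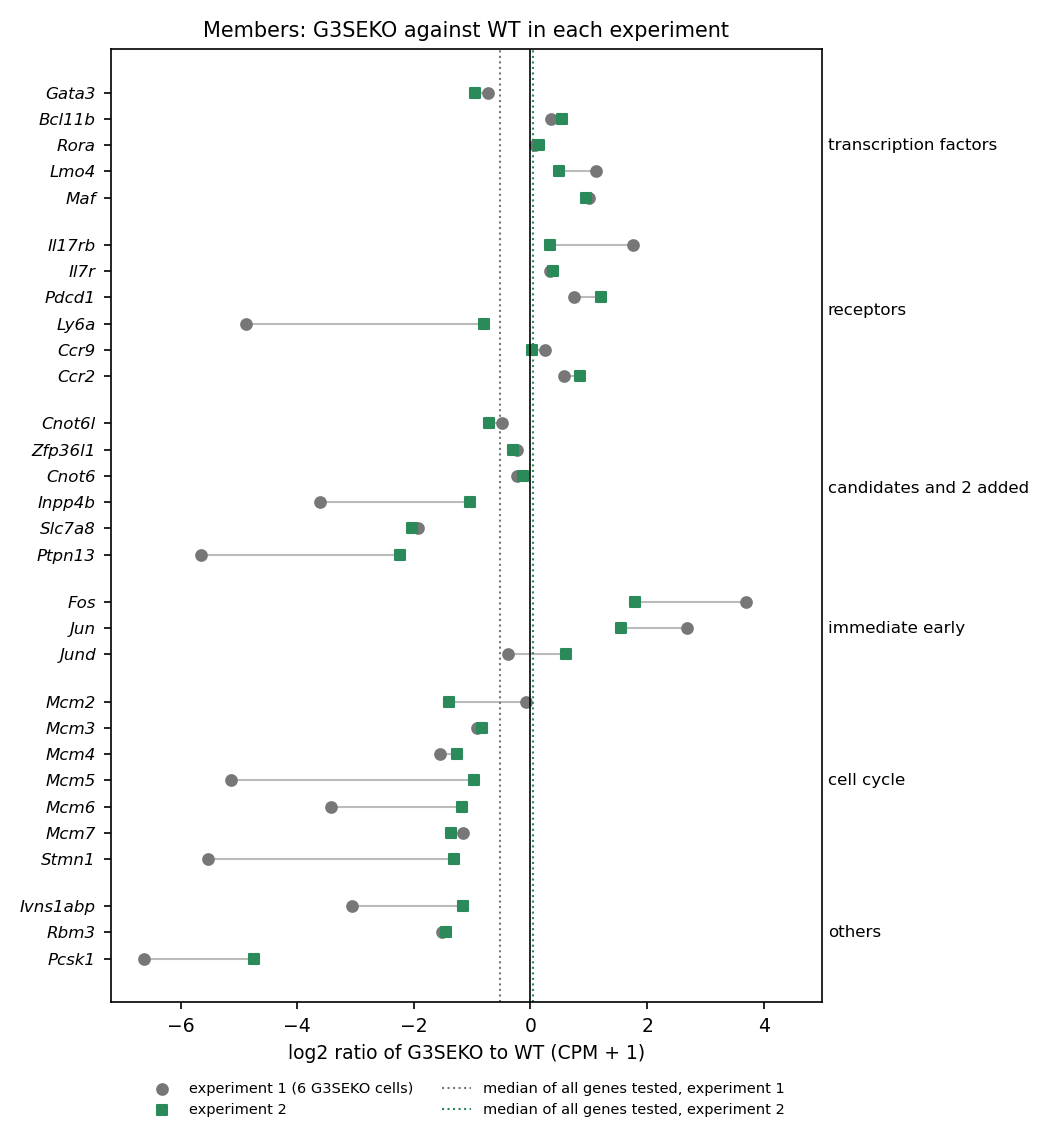
Log2 ratio of G3SEKO to WT members (CPM + 1) for genes named in the text, in experiment 1 (grey circles, 6 G3SEKO cells) and experiment 2 (green squares), with the median of all genes tested in each experiment as a dotted line. *Gata3*, the 4 candidate targets with *Zfp36l1* and *Cnot6*, the *Mcm* genes, *Rbm3* and *Pcsk1* lie left of 0 in both experiments, and *Maf*, *Fos* and *Jun* lie right of it in both. No gene shown was called by edgeR in the main setting.

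Markers of other cell types were also read in members, and their part in the differences above was not tested. The LTi/ILC3 markers summed to 1105 and 1238 CPM in WT and G3SEKO members of experiment 1 and to 515 and 724 CPM in experiment 2, against 7670 and 6440 CPM in WT *Ccr6*+ cells. *Ncoa7* supplied 374 CPM of the first value, 91% of it from 1 cell, and *Klrb1b* was at 266 and 143 CPM, then 49.8 and 84.6 CPM. Of the 12 markers tested, 1 was higher and 6 lower in both experiments. The NK/ILC1 markers summed to 1215 and 151 CPM and to 648 and 897 CPM, led by *Nkg7*, *Ccl5* and *Ctsw*, against 4205 and 1715 CPM in WT cells of the *Eomes* or *Klrd1* gate and 2029 and 1213 CPM in WT ILC progenitors. *Tbx21*, the defining factor, was at 49.7 and 0.259 CPM, then 1.98 and 11.1 CPM. Of 9 tested, 0 were higher and 1 lower in both experiments.

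T lineage markers summed to 2515 and 3485 CPM and to 2118 and 2879 CPM, nearly all from *Trbc1*, *Trbc2* and *Lat*, which WT ILC progenitors also expressed (3396 and 2755 CPM for the list). *Trbc1* and *Trbc2* are near-identical constant region genes, so the division of reads between them is uncertain, and the CD3 genes *Cd3g* and *Cd3d* were at no more than 6.87 CPM. Of 11 tested, 4 were higher and 2 lower in both experiments. B lineage markers summed to 247 to 419 CPM, almost all *Ighm* and *Cd79b*, with *Ms4a1* at no more than 5.04 CPM, and *Cd79a* at or below 0.0360 CPM, and of 3 tested 1 was lower in both. Myeloid markers summed to at most 32.6 CPM and erythroid markers to at most 55.9 CPM, mostly *Car2* beside *Hba-a1* and *Hba-a2*, and the leading myeloid genes were *Itgam*, *S100a8* and *S100a9*, with 2 of 6 higher and 1 of 3 lower in both experiments. The dendritic cell list summed to 494 to 742 CPM, mostly *Ccr9*, which is shared with ILC2 precursors, followed by *Tcf4* and *Bst2*, and 2 of 5 were higher and 1 lower. Of the basophil and mast cell list only *Cpa3* was read at 10 CPM or more, at 107 and 212 CPM, then 79.1 and 144 CPM, while *Mcpt8* and *Fcer1a* were at or below 0.0360 CPM and *Gata2* had no read. Early lymphoid markers, led by *Satb1*, *Notch1* and *Mef2c*, summed to 206 to 289 CPM, and 4 of 6 tested were lower in both experiments.

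Whether the genotype difference itself differed between members and their neighbours was tested on 8 sums each. Against ILC progenitors, 0 of 13465 genes (0%) were called by edgeR, 235 had an unadjusted p below 0.05, and DESeq2 called 16. The *Gata3* difference was lower in members than in ILC progenitors by an interaction of −0.67 on the log2 scale (SE 0.41, unadjusted p = 0.14, adjusted p = 1 by edgeR), which does not show that the difference is particular to members. *Gata3* in ILC progenitors was at 684 and 917 CPM in WT and G3SEKO cells of experiment 1 and at 724 and 465 CPM in experiment 2.

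Against *Il1rl1*-expressing cells, 1 of 13151 genes (0.0076%) was called by edgeR, 557 had an unadjusted p below 0.05, and DESeq2 called 12. The called gene was *Il18r1*, which the selection of the members used, so the call is not a result about them. The G3SEKO cells of experiment 1 in this comparison are 1 cell. *Gata3* had an interaction of 0.70 (SE 0.70, unadjusted p = 0.31), against a median of 1.0 over all genes. In experiment 2, where the comparison group had 47 G3SEKO cells, *Il1rl1*-expressing cells had 1043 CPM (WT) and 315.4 CPM (G3SEKO) of *Gata3*, and members had 963 and 496 CPM.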

How the data were processed

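Reads of TAS-Seq libraries of αLPs were analysed, from 1 mRNA and 1 hashtag library in each of 2 experiments. The files deposited by the authors hold unnormalized read counts (genes by cells) and hashtag counts, made after adapter removal with Cutadapt and alignment with Bowtie2 to GRCm38. Copies of a molecule were not collapsed. Gene positions are those of GENCODE for the same build. The authors' hashtag calls in the cell names gave the genotypes. In experiment 2 hashtag A0303 was read as G3SEKO against its label. Columns called doublet or without a hashtag (2 in experiment 1 and 100 in experiment 2) were not used. Doublets were treated by hashtag alone, and no doublet caller was run.

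Kept cells had no fewer than 83012 (experiment 1) or 6733 (experiment 2) reads and at most 10% mitochondrial reads, as in the study's methods. Reads of members were summed per genotype and experiment. Genotypes were compared with edgeR 4.0.16 (R 4.3.3; quasi-likelihood test, TMM, filterByExpr, experiment as a block, Benjamini-Hochberg, threshold 0.05), after removal of *Gm* and ribosomal protein genes. The sums are paired by experiment because both genotypes of an experiment shared a library. With 1 library per experiment and pooled mice, p-values measure only the spread between these sums. The fit was tested on simulated counts, with an outcome not reported here. In members it had 1 residual degree of freedom and a biological coefficient of variation of 0.92. A count of 0 called therefore does not show that the genotypes were alike. Shares have 95% exact binomial (Clopper-Pearson) intervals from scipy 1.17.1.

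Named genes are *Gata3*, the genes of the selection, *Il17rb* and *Bcl11b*, the 3 genes of each list with the highest mean CPM in members, and, since fewer than 5 were called, the 5 genes with the smallest p in each direction. Some genes named by this rule are not reported here. Genes singled out beyond these were chosen after their values were seen. The members and lists were chosen with earlier results of these data known. Alternatives were DESeq2 1.42.0 and its size factors, no filter, no block, thinned cells, other limits of the selection and each experiment alone.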

Additional observations from a re-analysis of the deposited data

Results flagged for a closer look

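*Il18r1* was flagged because its genotype difference differed between members and *Il1rl1*-expressing cells. The interaction was −3.40 on the log2 scale (SE 0.68, adjusted p = 0.011 by edgeR), against a median of 1.0 over all genes. *Il18r1* was at 850 and 1115 CPM in WT and G3SEKO members of experiment 2, and at 51.6 and 898 CPM in *Il1rl1*-expressing cells. In experiment 1 it was at 949 and 1544 CPM in members and at 119 and 1855 CPM in *Il1rl1*-expressing cells, where the G3SEKO value is that of 1 cell. Members have *Il18r1* at or above 1 by selection. *Il1rl1*+ *Il18r1*-low cells were 3327 of 3510 WT and 13 of 47 G3SEKO *Il1rl1*-expressing cells in experiment 2. The call was lost without a filter on low counts, with DESeq2's size factors, without the replicate block, with thinned cells and with *Gm* and ribosomal protein genes kept.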

How the results depend on the processing

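The count of genes called between the genotypes in members, 0 with edgeR, was 3 with DESeq2's size factors, 8 without a filter on low counts, 18 with DESeq2, 8 with the positive limits at 1.5 and 4 in members with *Il17rb* at or above 1 and *Pdcd1* below 1. It stayed at 0 without the replicate block, with cells thinned, with *Gm* and ribosomal protein genes kept, with the positive limits at 0.5 and with a hashtag fold of at least 2. *Fos*, *Slc24a3* and *Tmem147os* were called in 4 settings each, and *Gata3*, *Rbm3* and *Ly6a* in 0 of 11. The *Gata3* difference ranged from −1.15 to −0.68. Against ILC progenitors DESeq2 called 16 genes. Against *Il1rl1*-expressing cells the count of 1 became 12 with DESeq2, 2 in the *Il17rb*+ *Pdcd1*-low members, and 0 with DESeq2's size factors, without a filter, without the replicate block, with cells thinned and with *Gm* and ribosomal protein genes kept. The share ratio of 3.61 lay between 1.71 and 9.88 with 1 experiment left out. Reversed were *Icos*, from 0.16 to −0.16 with cells thinned and −0.14 without experiment 1 (0.30 without experiment 2), and *Fos*, to −0.48 in the *Il17rb*+ *Pdcd1*-low members, and the cause was not tested. Those members included 3 G3SEKO cells in experiment 1, with *Fos* at 0 CPM. For experiment 2 their *Fos* level stayed higher in G3SEKO, at 236 (WT) and 826 CPM (G3SEKO). With *Zbtb16* and *Il1rl1* at no read, 0 G3SEKO members remained in experiment 1, so the tests were not run, nor was the test against *Il1rl1*-expressing cells with limits at 1.5. The number of cells limits experiment 1, whose G3SEKO sum is 6 cells, and the lower depth per cell limits experiment 2.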
